A study of Rattus norvegicus with 53 samples.

Results

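The first hour of insulin was examined in L6 myotubes, a rat skeletal muscle line whose myoblasts fuse into multinucleated fibres, by setting the hour 1 pool of the insulin culture against the time 0 pool of the same culture. The rule takes the arrays titled Insulin_1 and pre-treatment_0, 3 a side and 6 of the 53 arrays in all, and pairs them by replicate letter. The hour 1 group had serum-free DMEM with 20 nM insulin, and each array holds RNA pooled from plates harvested at 20, 40 and 60 min. The time 0 group, titled pre-treatment_0, held 3 harvests pooled before any insulin was added. A control culture that received DMEM with 0 nM insulin gave hour 1 and time 0 arrays of its own, again 3 a side, which were set beside these. All groups came from cells differentiated in low serum and then kept in serum-free DMEM before time 0, so the baseline is a serum-starved one. The letters a, b and c are repeats of the whole course on different days with 1 cell line. Each plate was scraped at 1 time only, and the time 0 plates had no medium change at the start of the course, so fresh medium and insulin cannot be told apart in this comparison alone.

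Insulin binds its receptor tyrosine kinase, which phosphorylates IRS proteins and so activates the phosphatidylinositol 3-kinase and Akt branch and the Ras and MAP kinase branch. In the nucleus the first branch keeps FOXO factors out, lowering their targets, and the second activates ternary complex factors and SRF at immediate early genes such as Fos and Egr1, whose transcripts climb and decay within the first hour in many cell types. Insulin also raises sterol synthesis, through SREBP factors, and ribosome production in many cells.

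Before the comparison itself, 1 of the 6 arrays has to be described. At part of the probe sets, the time 0 array of letter a did not resemble the other arrays of its letter. Gpx1, a glutathione peroxidase, read 11.70 on the log2 scale in it, against 9.44 to 9.77 in the 16 other arrays of letter a, 11.08 to 11.43 in the 18 of letter b and 11.43 to 11.74 in the 18 of letter c. Il1rl1, the interleukin-33 receptor, read 10.31 in it, against 7.42 to 8.23 in the other arrays of letter a and 10.11 to 11.14 in letter b. Lgals3, the lectin galectin-3, read 12.24 in it, against 10.76 to 11.19 in the others of letter a and 11.96 to 12.32 in letter b. In each of these genes the array lay outside the whole range of its own letter. At the 23 probe sets that separated letter a from letter b, where 0 stands for the mean of letter b and 1 for that of letter a, this array had a median position of 0.03, against 0.95 to 1.10 in the other arrays of letter a. Its control-culture counterpart of the same day, taken before treatment too, had a position of 0.95. Over all 22143 probe sets, deviations of the array in question from its group mean correlated at 0.54 with those of letter a's insulin hour 1 array. What lies behind the difference at these genes was not tested. Results below are therefore also given without letter a, or with the control culture's time 0 array of letter a in its place, an alternative chosen after seeing the data.

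**Figure D1:**
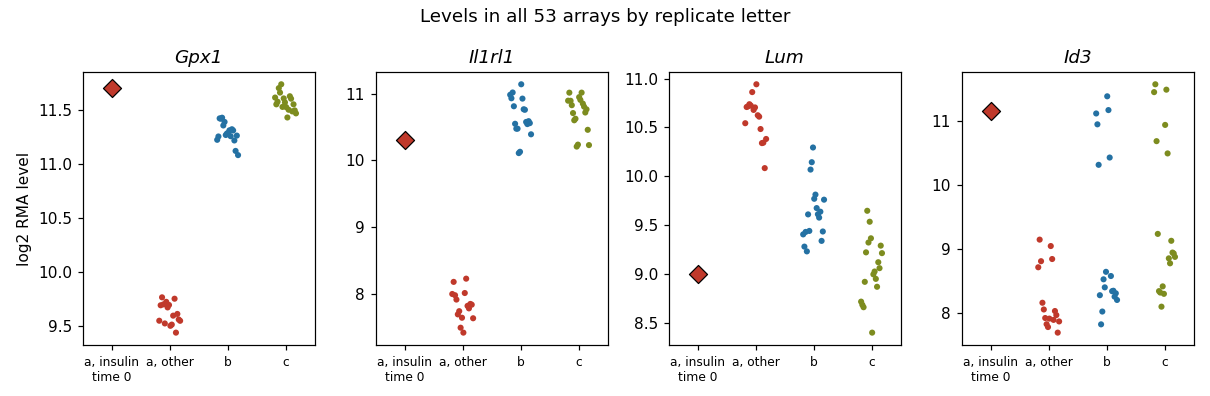
Log2 RMA levels of 4 genes in all 53 arrays, with the insulin culture's time 0 array of letter a as a diamond and each other array as a point, grouped by letter on the horizontal axis. For Gpx1, Il1rl1, Lum and Id3 the diamond lies outside the range of the 16 other arrays of letter a. It is at 11.70 against 9.44 to 9.77 for Gpx1 and at 11.15 against 7.69 to 9.14 for Id3. Id3 shows high points in letters b and c, which include their first hours.

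The labels call the cell type skeletal muscle myoblasts, while the protocol describes differentiation before time 0, and the arrays held markers of both states. Myog, the transcription factor that drives fusion and terminal differentiation, read 13.22, 12.55 and 11.50 at hour 1 in letters a, b and c, against 12.40, 12.48 and 11.64 at time 0. The 25 measured markers of differentiated myotubes averaged 9.71 to 10.78 over the arrays of hour 1 and 9.69 to 10.68 over those of time 0. The 9 measured markers of undifferentiated myoblasts averaged 9.07 to 9.22 at hour 1 and 9.07 to 9.20 at time 0, the 16 of proliferating cells 8.37 to 9.09 and 8.48 to 9.38, and the 10 of fibroblasts 9.53 to 9.78 and 9.40 to 9.60. Their part in the results was not tested. Other lists were lower or mostly outside the tested probe sets. Of 12 macrophage markers 6 were measured, at an average of 6.05 to 6.23 at hour 1 and 6.18 to 6.32 at time 0, as were 2 of 10 endothelial and 2 of 8 adipocyte markers.

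No transcript passed the test at hour 1. Of 22143 probe sets, 0 (0%) were called higher and 0 (0%) lower than time 0 by limma at an adjusted p under 0.05, while 1069 (4.83%) had an unadjusted p under 0.05. The lowest adjusted p was 0.28. The control culture likewise had 0 calls over the same hour, with 614 probe sets (2.77%) at an unadjusted p under 0.05, and the test of the difference between the cultures had 0 calls, with 498 (2.25%). At time 0 itself, the arrays of the insulin culture and those of the control culture differed at 0 probe sets after adjustment and at 1176 (5.31%) before it. The median SE of a change was 0.11 on the log2 scale, and for 10941 of 11631 genes, 94.1%, the 95% interval of the change lay within 0.5 of 0 in both directions. In simulated data of this comparison on 22143 probe sets, 98% of probe sets given a log2 change of 2 were recovered. The share was 82% of those given 1, 36% of those given 0.5 and 6% of those given 0.3. The simulated noise took its SD from a fit without the replicate block, so these rates need not hold for the real arrays.

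The same fit called transcripts soon afterwards. Against the same time 0 arrays, 41 probe sets (0.185%) were called at hour 2, 105 (0.474%) at hour 3, 536 (2.42%) at hour 4 and 1527 (6.9%) at hour 8, the last with 3.16% higher and 3.73% lower. Without the time 0 array of letter a these counts were 0 at hour 1, 27 at hour 2, 102 at hour 3, 479 at hour 4 and 1394 at hour 8. With the control culture's array of letter a in its place they were 0, 31, 120, 540 and 1887. Without the time 0 array of letter b they were 34, 131, 173, 730 and 1511, and without the replicate block 0, 1, 8, 30 and 121, so the count at hour 2 depended on both settings and those at hours 3, 4 and 8 on the block, and hour 3 on letter b as well. The hour comparisons share their time 0 arrays, so their counts are not independent of each other. Hour 3 of the insulin culture has arrays of letters b and c only. The control culture was not tested against time 0 after hour 1. Insulin and time in serum-free medium therefore cannot be told apart in these counts, or in the hour 8 counts of gene lists below. The letters themselves also had little in common at hour 1: across the 22143 probe sets, the difference of letter a correlated at 0.09 with that of letter b and at -0.10 with that of letter c, and letters b and c correlated at -0.05. At hour 8 the same 3 correlations were 0.28, 0.10 and 0.22. These are descriptions across probe sets of arrays that share no library within a pair.

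**Figure D2:**
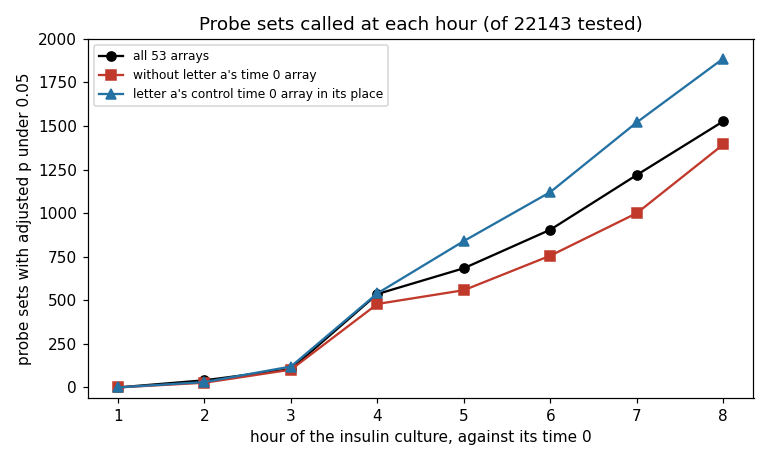
Number of probe sets with an adjusted p under 0.05 (vertical axis, of 22143) at each hour of the insulin culture against its time 0 (horizontal axis), with all arrays, without letter a's time 0 array, and with letter a's control time 0 array in its place. All 3 lines start at 0 at hour 1, and with all arrays the count reaches 41 at hour 2 and 1527 at hour 8.

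The largest change of any probe set belonged to Fos, the AP-1 subunit that is the textbook immediate early gene. Its dimmer probe set read 6.48, 6.71 and 7.28 at hour 1 in letters a, b and c, against 5.27, 6.34 and 5.41 at time 0. All 3 hour 1 arrays lay above all 3 of time 0, and the change was 1.15 ± 0.28 (SE, n = 3 arrays a side, limma adjusted p = 0.91). It was 1.12 without letter a and 1.19 with the control culture's array as the baseline of letter a, about as large as with all arrays. The control culture read 6.45, 5.67 and 6.98 at hour 1 and 5.15, 6.18 and 6.16 at time 0, and the difference between the cultures was 0.62, with a 95% interval of -0.19 to 1.43. The brighter Fos probe set read 6.26, 6.57 and 6.37 at hour 1, against 6.05, 6.56 and 6.66 at time 0, a change of -0.02 ± 0.14. The change of the dimmer probe set was thus not seen at the brighter one.

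Among brightest probe sets, the MAP kinase phosphatase Dusp1, which removes phosphate from ERK, JNK and p38 and is induced by the kinases it switches off, had the largest change above 0 apart from Lum. It read 10.53, 9.41 and 10.32 at hour 1, against 9.43, 9.22 and 9.51 at time 0. Letters a and c lay well above their baselines and letter b barely so, for a change of 0.70 ± 0.21 (SE, limma adjusted p = 0.94). Without letter a it was 0.50, and with the replaced baseline 0.42. In the control culture Dusp1 read 10.50, 9.95 and 10.09 at hour 1 and 10.26, 9.65 and 9.36 at time 0, also higher in each letter. Its dimmer probe set gave 0.58 ± 0.26.

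Plk2, a polo-like kinase induced early by serum and by calcium, kept its arrays apart in both cultures. It read 10.08, 9.58 and 9.96 at hour 1 of insulin, against 9.40, 9.46 and 9.47 at time 0, and 10.02, 9.67 and 10.01 at hour 1 of control, against 9.65, 9.49 and 9.59 at time 0. The changes were 0.43 ± 0.12 with insulin and 0.32 without it, and their difference was 0.11, with a 95% interval of -0.24 to 0.47. In 173 genes (1.49%) all 3 arrays of hour 1 lay above all 3 of time 0 in the insulin culture and in 300 (2.58%) all lay below, while the control culture had 118 (1.01%) and 135 (1.16%). Of all 11631 genes, 7 lay above in both cultures and 6 below in both. The 7 included Plk2, LOC102551819 and Synpo, the actin-associated synaptopodin, which were singled out after their values were seen. LOC102551819, which the annotation does not describe, had a change of 0.49 with insulin and of 0.36 without it.

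Irs1, the adaptor that couples the insulin receptor to phosphatidylinositol 3-kinase, followed the same course in both cultures. It read 6.69, 6.01 and 6.48 at hour 1, against 6.08, 5.88 and 5.98 at time 0, a change of 0.42 ± 0.13 (SE, limma adjusted p = 0.94). Every letter was higher at hour 1, although letter b's 6.01 lay under letter a's time 0 value. In the control culture Irs1 read 6.90, 6.38 and 7.03 at hour 1, against 6.18, 6.04 and 6.31 at time 0, a change of 0.59. The step without insulin was at least as large in the point estimate, and the difference of -0.18 had a 95% interval of -0.55 to 0.20.

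Of 11631 genes, 206 were higher at hour 1 in all 6 letter steps of both cultures, Plk2, Dusp1 and Irs1 among them. The 250 bases before the start sites of these 3 are shown, as RefSeq gives them on the GRCr8 build. They were chosen after the values were seen. Capitals mark matches on either strand to the cyclic AMP response element TGACGTCA, to its core TGACG, which the whole element contains, and to the E-box CACGTG.
Plk2, chr2:43702286-43702535, plus strand: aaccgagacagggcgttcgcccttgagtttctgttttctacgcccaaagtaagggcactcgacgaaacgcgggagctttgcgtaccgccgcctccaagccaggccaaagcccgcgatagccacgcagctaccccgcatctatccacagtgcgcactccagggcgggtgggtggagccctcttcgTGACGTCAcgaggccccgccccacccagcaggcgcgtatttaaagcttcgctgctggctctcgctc
Dusp1, chr10:17184603-17184852, plus strand: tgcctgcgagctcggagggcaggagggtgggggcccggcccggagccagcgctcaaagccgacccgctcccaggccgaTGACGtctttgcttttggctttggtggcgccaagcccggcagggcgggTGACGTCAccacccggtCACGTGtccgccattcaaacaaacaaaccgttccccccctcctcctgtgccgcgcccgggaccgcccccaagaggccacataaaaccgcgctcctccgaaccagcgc
Irs1, chr9:91053960-91054209, minus strand: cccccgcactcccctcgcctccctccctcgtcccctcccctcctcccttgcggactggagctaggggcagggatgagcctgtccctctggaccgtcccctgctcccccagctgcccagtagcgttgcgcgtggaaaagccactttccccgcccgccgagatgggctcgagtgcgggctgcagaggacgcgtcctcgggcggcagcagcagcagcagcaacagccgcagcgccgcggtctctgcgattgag
The whole element stood once in Plk2, from base 66 to base 59 before the start, and once in Dusp1, from base 124 to base 117, where a further core and an E-box also occurred. Of 33469 RefSeq promoter windows of this length, 1.59% hold the whole element, 18.2% the core and 5.59% the E-box. The Irs1 window held none of these, and none of the 3 windows held a serum response element (CArG box), an AP-1 site TGANTCA or a FOXO site GTAAACA, which 1.5%, 6.34% and 3.21% of all windows hold. A match is a run of letters and not evidence of binding.

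**Figure D3:**
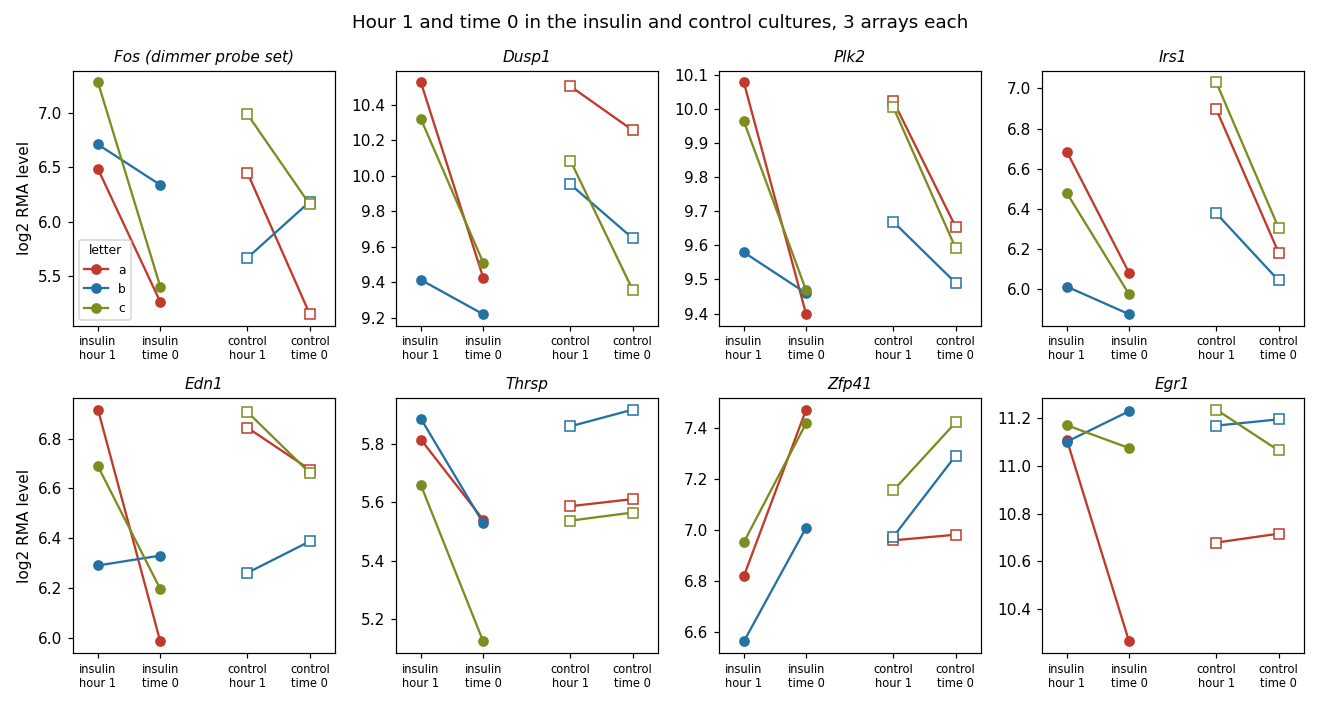
Log2 RMA levels of 8 genes at hour 1 and time 0 of the insulin culture (filled circles, left pair) and of the control culture (open squares, right pair), with lines joining the 2 arrays of a letter. Dusp1, Plk2 and Irs1 slope the same way in both cultures, whereas Thrsp is higher at hour 1 in the insulin culture, at 5.66 to 5.89 against 5.12 to 5.54, and slightly lower at hour 1 in each control letter.

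Egr1, a zinc finger factor switched on through SRF, was already bright at time 0, unlike Fos. It read 11.11, 11.10 and 11.17 at hour 1, against 10.27, 11.23 and 11.07 at time 0. Letters b and c were level, letter a was higher, and without letter a the change was -0.02. The control culture read 10.68, 11.17 and 11.24 at hour 1 and 10.72, 11.19 and 11.06 at time 0. Against time 0, Egr1 fell by 1.72 at hour 3 (limma adjusted p = 0.023) and fell by 2.36 at hour 8. Control arrays, whose step was not tested, read 8.71, 8.13 and 7.70 at hour 3 and 8.76, 8.40 and 7.76 at hour 8. The BMP target Id3 and the ERK phosphatase Dusp6, both named after their values were seen, had the same shape. Id3 was -2.75 at hour 3 against time 0 and Dusp6 -1.84, in the fit that also holds letter a's time 0 array. Id3 read 11.15 in that array. At hour 1 the 2 genes were at -0.59 and -0.16. In letters b and c, the only ones with an insulin array at hour 3, Id3 read 8.58 and 8.85 then, against 11.38 and 10.93 at time 0. In the control culture Id3 read 8.16, 8.28 and 9.23 at hour 3, against 8.71, 11.11 and 11.45 at time 0. The Id3 value at hour 1 rested on letter a, and it was 0.22 with the replaced baseline.

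Over the 30 measured immediate early transcription factors the median change was 0.02, against -0.01 over all 11631 genes, with 9 of the 30 at a mean level below 7, 0 called, 0 whose arrays lay apart in either direction, and letter medians of -0.04, 0.01 and 0.08. Single members ran from -0.51 to 0.39. Here and below a gene is said to stand at its log2 change from time 0, with its SE. Jun, the partner of Fos, stood at 0.03 ± 0.11, Srf by 0.15 ± 0.11 and Myc by -0.26 ± 0.30. Atf3, a stress-responsive repressor, read 7.24, 7.04 and 6.89 at hour 1, against 6.65, 7.01 and 6.34 at time 0, a change of 0.39 ± 0.15 beside 0.44 in the control culture. It was called at hour 2, at 0.86. Among 14 feedback inhibitors of the MAP kinase pathway the median was 0.03, and Spry2, which restrains Ras signalling, stood at 0.24 ± 0.13. Among 32 early growth factors and signalling proteins it was -0.02. Edn1, the vasoactive peptide endothelin-1, read 6.92, 6.29 and 6.69 at hour 1, against 5.99, 6.33 and 6.20 at time 0. Letter b did not share the difference, the change was 0.46 ± 0.13, and with the replaced baseline it was 0.23.

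Setting hour 2 against hour 1 within the insulin culture, limma called 5 probe sets higher (0.0226%) and 9 lower (0.0406%). Dusp1 fell by 1.63 (adjusted p = 6e-05), Ccn1, a matricellular growth regulator, fell by 1.33, Spry2 fell by 0.76 and Edn1 fell by 0.73. The serum- and glucocorticoid-induced kinase Sgk1 fell by 0.76 after reading 8.97, 9.38 and 9.41 at hour 1, against 8.91, 9.39 and 9.12 at time 0. Irs2, the second major IRS protein and a FOXO target, fell by 0.59 after 7.85, 7.78 and 7.98 at hour 1, against 7.68, 7.76 and 8.03 at time 0. Its change at hour 1 had a 95% interval of -0.18 to 0.27. In the other direction the repressor Hes1 rose by 1.05, the TGF-beta-induced factor Klf10 by 1.15 and Ddit4, an inhibitor of mTORC1, by 0.88. At hour 1 Hes1 stood at 0.31, Klf10 at 0.04 and Ddit4 at 0.21 from time 0, none of them called. The control culture, whose step was not tested, moved the same way in most of these genes. Dusp1 averaged 8.82 ± 0.49 at hour 2 and 10.18 ± 0.29 at hour 1 there (SD, n = 3 each), Ccn1 9.78 ± 0.16 and 11.66 ± 0.13, Spry2 9.56 ± 0.17 and 10.28 ± 0.34, and Edn1 6.08 ± 0.11 and 6.67 ± 0.36. Klf10 averaged 9.53 ± 0.32 at hour 2 and 8.91 ± 0.35 at hour 1 of that culture, Ddit4 7.35 ± 0.38 and 6.74 ± 0.16, and Hes1 9.03 ± 0.48 and 8.63 ± 0.21. Sgk1 averaged 9.05 ± 0.23 and 9.31 ± 0.25, and Irs2 was level at 7.83 ± 0.08 and 7.86 ± 0.08. Whether the 2 cultures differed in this step was not tested.

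**Figure D4:**
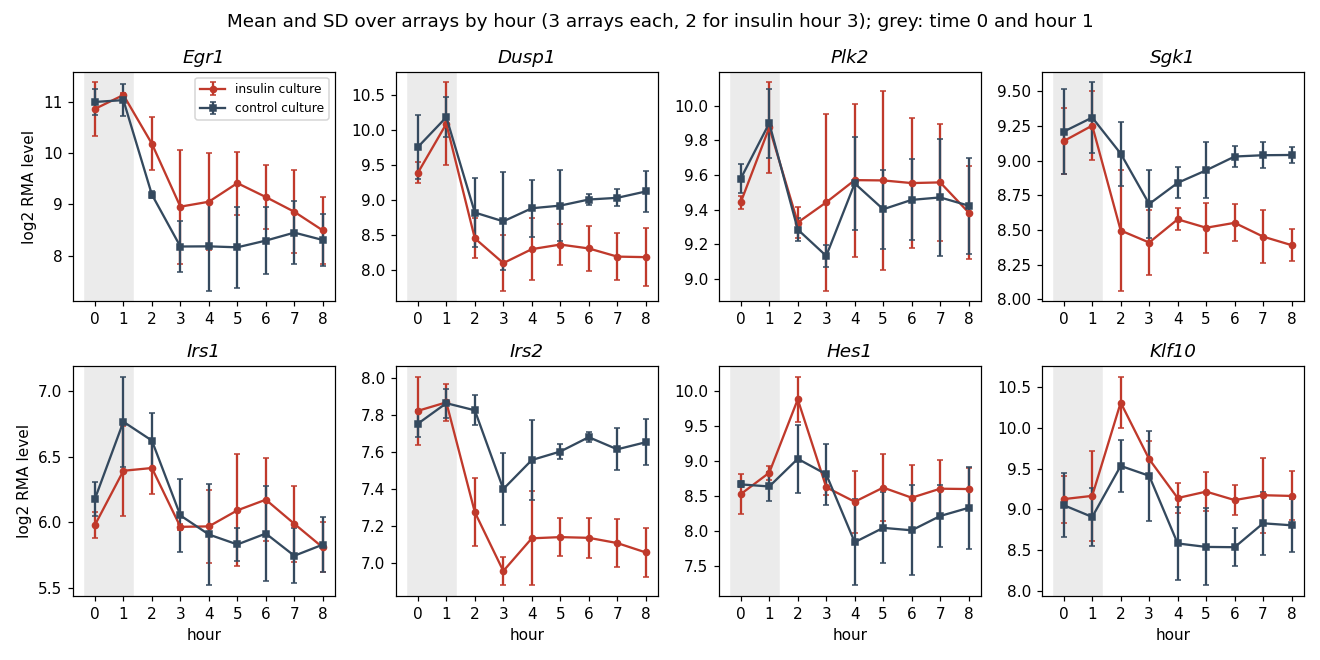
Mean log2 RMA level with SD (bars) over the arrays of each hour, for 8 genes in the insulin culture (circles) and the control culture (squares), with time 0 and hour 1 shaded. Egr1, Sgk1 and Irs2 are level across the shaded part and lower afterwards, and Hes1 and Klf10 peak at hour 2.

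Receptors and effectors of insulin itself were close to their baseline. The insulin receptor Insr read 6.35, 6.24 and 6.31 at hour 1, against 6.24, 6.29 and 5.82 at time 0 (0.18 ± 0.13), and Igf1r, the related receptor for IGF-1, stood at 0.09 ± 0.10. Of 46 measured genes of the signalling core 24 were above 0, where 5086 of 11631 genes were. The median was 0.01, or -0.02 with the replaced baseline. The docking protein Gab1 stood at 0.22 ± 0.08 and the mTOR inhibitor Deptor at 0.26 ± 0.17, but Deptor was at -0.02 with the replaced baseline. Slc2a4, the insulin-responsive glucose transporter GLUT4, stood at 0.04 ± 0.09, and Slc2a1, the basal transporter GLUT1, by -0.19 ± 0.12. Hexokinase Hk2 stood at 0.06 ± 0.20 and glycogen synthase Gys1 by 0.02 ± 0.09. The list of glucose transport, glycolysis and glycogen genes had 10 of 31 above 0, where 5086 of 11631 genes were, and a median of -0.05. Its letter medians were -0.11, -0.02 and -0.01, and its median was -0.02 with the replaced baseline, against -0.01 over all genes with all arrays.

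The 35 measured FOXO targets had a median change of 0.03, with 0 called and 2 whose hour 1 arrays lay below time 0, where 2.58% of all genes did. The letter medians were 0.151, 0.003 and -0.001. The list median was -0.02 with the replaced baseline and -0.02 without letter a. Pdk4, which shuts pyruvate out of oxidation, stood at -0.09 ± 0.26, Klhl24 by 0.32 ± 0.19 and the cell cycle inhibitor Cdkn1b by 0.26 ± 0.09. Txnip, an inhibitor of glucose uptake that itself tracks glucose, read 9.84, 10.16 and 10.51 at hour 1, against 10.61, 10.33 and 10.50 at time 0. Letters a and b were lower and letter c level, for -0.31 ± 0.15. At hour 8, 6 of these 35 were called lower and 2 higher, beside 3.73% and 3.16% of all probe sets. Vegfa, a growth factor for vessels, stood at 0.06 ± 0.13, and among 17 hypoxia targets the median was -0.01.

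Anabolic programmes were at or near their starting level. The 72 ribosome biogenesis genes had a median of -0.04, with letter medians of -0.10, -0.10 and 0.07, and Noc4l and Nhp2 marked the range at 0.19 and -0.21. The 33 amino acid response genes had a median of -0.01, with Chac1, a glutathione-degrading enzyme, at 0.27 ± 0.21 and the amino acid transporter Slc7a5 at 0.20 ± 0.19. At hour 8, 12 of the 33 were called higher, beside 3.16% of all probe sets. Cholesterol synthesis and uptake had 19 of 23 genes above 0, where 5086 of 11631 genes were, and a median of 0.11. At hour 8, 18 of the 23 were called higher, beside 3.16% of all probe sets. The hour 1 letter medians were 0.20, 0.09 and -0.04, and the list median was 0.03 with the replaced baseline. Cyp51, the sterol demethylase, read 11.76, 11.26 and 11.18 at hour 1, against 11.27, 11.04 and 11.10 at time 0, and its change of 0.27 ± 0.11 became 0.05 with that baseline.

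Of 37 measured cytosolic ribosomal protein transcripts, 34 were below 0, as were 6545 of all 11631 genes, and 4 had all 3 hour 1 arrays below time 0, where 2.58% of all genes did. Their median of -0.05 compares with -0.01 over all genes. Rps28 read 12.49, 12.73 and 12.70 at hour 1, against 12.80, 12.82 and 12.82 at time 0 (-0.17 ± 0.06). It was -0.08 with the replaced baseline and -0.10 without letter a. Rps29 stood at -0.13 ± 0.04, or at -0.08 with the replaced baseline. The letter medians were -0.10, -0.04 and -0.02, and with the replaced baseline the list median was -0.02. No member was called.

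Markers of proliferating cells had 15 of 16 members below 0, where 6545 of 11631 genes were, with a median of -0.22. Top2a, the topoisomerase of dividing cells, read 9.05, 8.05 and 9.05 at hour 1, against 9.57, 8.18 and 9.24 at time 0. The letter medians were -0.52, -0.11 and -0.04, and the list median was -0.03 with the replaced baseline. The shift thus lay mainly in letter a. Fibroblast markers, with a median of 0.10, behaved likewise, and Lum, a collagen-binding proteoglycan and their largest member, stood at 0.76 ± 0.21, or at 0.24 with the replaced baseline.

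The remaining lists had 0 members called and medians from -0.10 to 0.05, against -0.01 over all genes. The median was 0.03 over 27 SRF and actin targets, -0.10 over 21 early targets of TGF-beta and BMP, -0.03 over 20 NF-kappaB targets, 0.01 over 18 clock genes, 0.01 over 15 glucocorticoid-responsive genes, -0.02 over 25 chaperones and stress genes of the endoplasmic reticulum, 0.05 over 14 myogenic regulators and -0.01 over 23 cyclins and cell cycle inhibitors. The TGF-beta and BMP median was -0.01 with the replaced baseline. Xbp1, a transcription factor of the unfolded protein response, had all its hour 1 arrays above time 0, at 11.11, 11.05 and 11.18 against 10.74, 10.95 and 10.98, and stood at 0.22 ± 0.09. Adm, the hypoxia-inducible peptide adrenomedullin, did so too, with 5.50, 5.56 and 5.51 at hour 1, against 5.25, 5.20 and 5.30 at time 0, and stood at 0.27 ± 0.11. Neither passed the test.

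**Figure D5:**
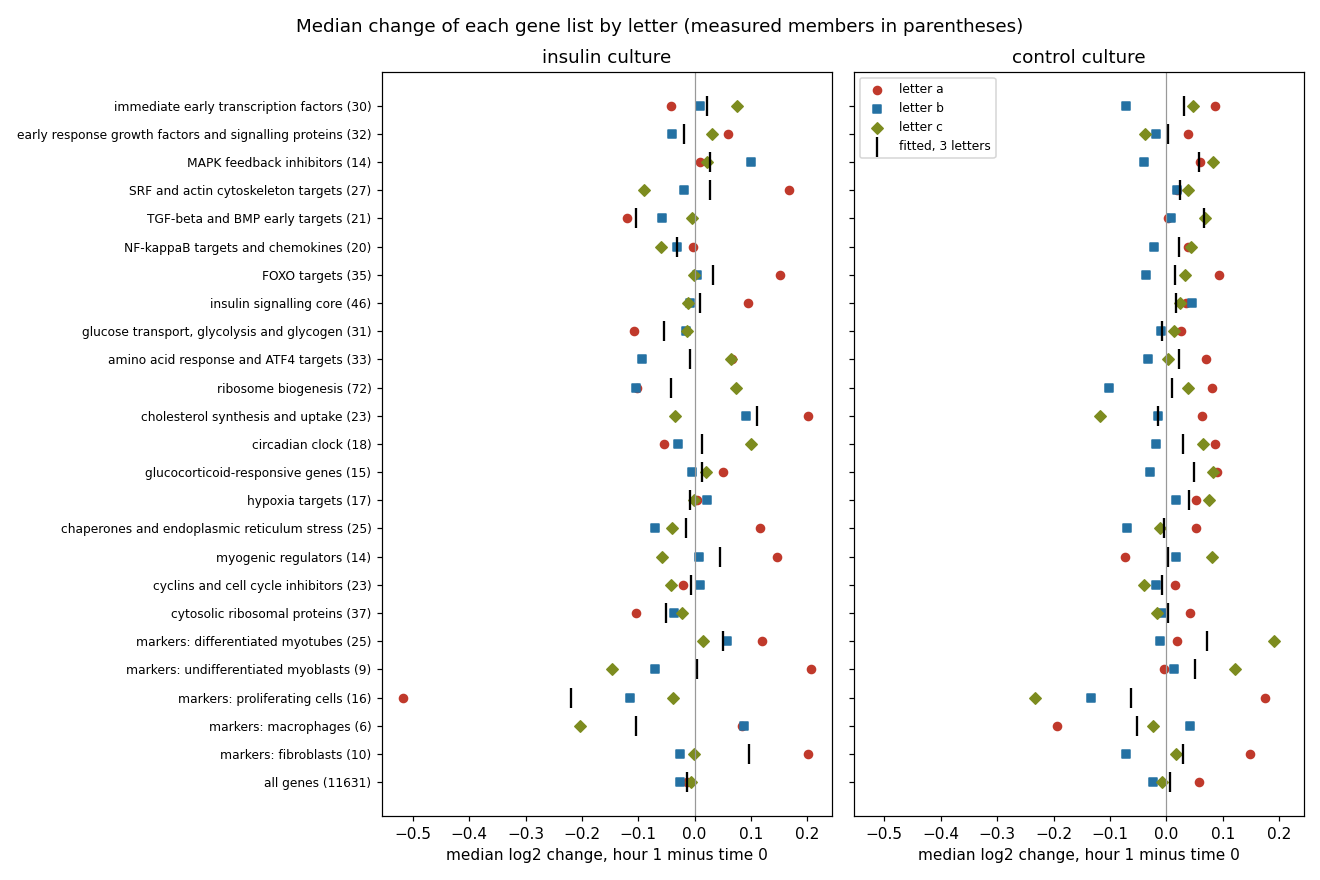
Median log2 change from time 0 to hour 1 (horizontal axis) over the measured members of each gene list (rows, number in parentheses) for letters a, b and c and for the fit over all 3, in the insulin culture (left) and the control culture (right). Medians of the fit lie between -0.22, for proliferation markers, and 0.11, for cholesterol genes, and letter a is farthest from 0 in both.

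Sizes of change across all genes showed the weight of letter a. Of the 61 genes with a change of at least 0.4, 34 higher and 27 lower, letter a had the largest change in 56. In 37 of the 61 all letters shared a sign, where 24.7% of all genes did. In 12 the arrays of the 2 times did not overlap, where 1.49% of all genes lay above and 2.58% below. Picking by size in these same values favours both counts. With the replaced baseline 4 of the 61 still reached 0.4, and without letter a 10 did. The 61 were picked with letter a's time 0 array in the fit, so a drop was partly fixed in advance. Taking all genes whose arrays did not overlap, the largest values above time 0 after Fmod, a small proteoglycan, were H3c1 at 0.51, LOC102551819 at 0.49 and C10h17orf67 at 0.46. Fmod itself, at 0.57, was at 0.15 with the replaced baseline. Igf2r, the mannose 6-phosphate receptor, at 0.40, was at 0.02. Tle1, a Groucho co-repressor, stood at 0.43 and at 0.25, and Nrip1, a co-repressor of nuclear receptors, at 0.37 and 0.18, where the second value of each is that with the replaced baseline.

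Below time 0 the largest such value was that of Hmga1, a chromatin protein of growing cells, at -0.64, which was -0.14 with the replaced baseline. The next, the zinc finger gene Zfp41, had the lowest adjusted p of the whole comparison. Zfp41 read 6.82, 6.56 and 6.95 at hour 1, against 7.47, 7.01 and 7.42 at time 0. Each letter was lower by a similar amount, and the change was -0.52 ± 0.10 (SE, limma adjusted p = 0.28). It was -0.46 without letter a, but its next probe set gave -0.05 ± 0.09. Control arrays read 6.96, 6.97 and 7.16 at hour 1, against 6.98, 7.29 and 7.42 at time 0. Lgals3, at -0.47, and Ankh, a pyrophosphate exporter, at -0.45, were at 0.01 and -0.08 with the replaced baseline. Arc, an SRF-dependent activity-regulated gene of neurons, at -0.38, was at -0.43, and the GABA receptor subunit Gabrr2, at -0.36, was at -0.26. Gabrr2 read 6.08, 6.08 and 5.93 at hour 1, against 6.42, 6.43 and 6.33 at time 0.

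Thrsp, a regulator of lipogenesis induced by thyroid hormone and insulin in liver, was above time 0 in every letter with insulin and below it in every letter without. It read 5.81, 5.89 and 5.66 at hour 1, against 5.54, 5.53 and 5.12 at time 0, for 0.39 ± 0.13, and 0.36 with the replaced baseline. Control arrays read 5.59, 5.86 and 5.54 at hour 1 and 5.61, 5.92 and 5.56 at time 0. The difference between the cultures was 0.42, with a 95% interval of 0.06 to 0.78 before adjustment and an adjusted p of 1.00. The gene's dimmer probe sets gave -0.16 and -0.15, and all 3 lay close to the lowest level tested.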

How the data were processed

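Transcripts of L6 myotubes were measured on Affymetrix rat arrays. Per the study's methods and the labels, the authors subtracted background, applied quantile normalization and summarized probes with RMA (version not given in the sources used here), and log2 values for 31099 probe sets on 53 arrays were deposited by the authors. The platform annotation gives 1 symbol to 20832 probe sets, several to 436 and lists none for 9831. Depth has no meaning for arrays, and their number, 3 a side, limits the precision.

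Arrays were grouped by culture, hour and letter from their titles. The members and gene lists were chosen with earlier results of these data known. The 22143 probe sets with a mean of at least 5 were tested, 57 manufacturer controls left out, in place of the study's detection calls. With limma 3.58.1 in R 4.3.3, 18 group means and the replicate letter within each culture as a block were fitted on all 53 arrays, with a variance that follows the level. Tests were two-sided, adjusted by Benjamini-Hochberg over all tested probe sets, with a threshold of 0.05. Letters are repeats on different days by the methods, and arrays of 1 letter deviated together (correlations of 0.54, 0.69 and 0.51 between hour 1 and time 0 deviations), so the pairing was kept. A gene stands at its brightest probe set with 1 symbol in the platform annotation (11631 genes). Of 691 list symbols 561 were measured. Symbols not matched are not analysed here. The test was checked on simulated data, with 50 probe sets changed at each of 4 sizes and 5 false calls.

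Genes were named by size: 15 each way among those that passed, filled with genes whose arrays did not overlap; then up to 3 members of each list, and a fixed set of insulin and early genes. Id3, Dusp6, Hes1, Klf10, Il1rl1, Gpx1, Spry2 and Ccn1 were added, or are named beyond the rule, after their values were seen. Alternatives changed the block, the filter, the variance trend, the centring, the probe set rule, the baseline and the arrays. The single-array omissions and the replaced baseline were chosen after seeing the data.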

Additional observations from a re-analysis of the deposited data

Results flagged for a closer look

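In 7 of the 120 named genes, the 3 letters moved one way with insulin and the 3 letters of the control culture moved the other way. The 30 genes named by size were picked with 1 sign in all 3 insulin letters, so part of this pattern was fixed for them. By limma, the difference between the cultures passed for none of them, and each had an adjusted p of 1.00. Thrsp stood at 0.39 in the insulin culture and at -0.04 in the control culture, a difference of 0.42 ± 0.18 (SE). Rhou stood at 0.37 in the insulin culture and at -0.10 in the control culture, a difference of 0.47 ± 0.23 (SE). Sema3d stood at 0.37 in the insulin culture and at -0.13 in the control culture, a difference of 0.50 ± 0.34 (SE). Hmga1 stood at -0.64 in the insulin culture and at 0.07 in the control culture, a difference of -0.71 ± 0.35 (SE). Csf2 stood at -0.16 in the insulin culture and at 0.09 in the control culture, a difference of -0.25 ± 0.16 (SE). Cyp51 stood at 0.27 in the insulin culture and at -0.11 in the control culture, a difference of 0.37 ± 0.15 (SE). Rps28 stood at -0.17 in the insulin culture and at 0.07 in the control culture, a difference of -0.24 ± 0.08 (SE). With the control culture's time 0 array of letter a as the baseline of that letter, the change in the insulin culture was -0.14 for Hmga1, 0.05 for Cyp51, 0.05 for Sema3d, -0.08 for Rps28 and 0.36 for Thrsp. Over all 11631 genes, 299 moved opposite ways in the cultures in all letters.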

How the results depend on the processing

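With the replicate block left out, 0 probe sets were called at hour 1 in the insulin culture, as with the block shared by both cultures, fitted on the insulin culture or the 6 arrays alone, with no filter or a minimum mean of 7, with an untied variance, with centred arrays, with all probe sets of a gene averaged, and with both time 0 groups as the baseline. The counts at an unadjusted p under 0.05 ran from 200, without the block, to 2006 over the 20 alternatives, and the lowest adjusted p from 0.0029 to 1.00. Leaving out 1 letter or 1 array gave 0 to 34 calls. The 34, 18 higher and 16 lower, came without the time 0 array of letter b, which leaves letters a and c to carry the baseline, and letter a had the largest change in 33 of them. They include Gpx1, Il1rl1, Lum, Zfp41, Plk2 and the dimmer Fos probe set. Without the time 0 array of letter c, 1 probe set was called, Il1rl1. The control culture had 7 calls when its 6 arrays were fitted alone with the replicate block and 0 in its 10 other alternatives, and the difference between the cultures had 0 in all 17. The cause was not tested. Of 2363 values of named genes under these alternatives, 44 moved by more than 1 SD between letters, 11 were newly called and 97 had the other sign. None of these 97 was called in either setting. Among 39 other tested probe sets of the named genes, 4 differed by more than 0.5 from the brightest and 9 had the other sign.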
